A study of Mus musculus with 44 samples.

Results

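The interferon-inducible GTPases described here are 10 mouse genes: the guanylate-binding proteins Gbp2, Gbp3, Gbp5, Gbp7 and Gbp9, and the immunity-related GTPases Irgm1, Irgm2, Igtp, Iigp1 and Ifi47. They were taken by gene symbol from 4 RNA-seq count tables of mouse bone marrow-derived macrophages (BMDMs), which list 24940 genes, and all 10 were found and tested in each table. The tables hold 44 libraries in 22 groups of 2 replicates. By the study's methods BMDMs are macrophages grown in culture from marrow of C57BL/6 mice, and treatment lasted 6 h except for 12 h with RANKL. The 4 RANKL libraries carry 2 labels, since their source is given as bone marrow-derived macrophages while their descriptions and column names say osteoclast.

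In the first table, cells of NCoR flox/flox mice (WT) and of NCoR flox/flox mice that also carry LysMCre (NKO) received vehicle (Veh), KLA, poly I:C, IFNβ, IL4 or RANKL. NCoR, encoded by Ncor1, is a corepressor that carries the deacetylase HDAC3. LysMCre expresses Cre from the Lyz2 locus, so that deletion is restricted to myeloid cells. KLA, Kdo2 lipid A, is an agonist of TLR4, and poly I:C, a synthetic double-stranded RNA, is an agonist of TLR3. The second table holds wild-type cells given vehicle, KLA, or KLA with the HDAC3 inhibitor RGFP966. The third holds Pgc1b flox/flox cells without and with LysMCre, given vehicle or KLA, where Ppargc1b encodes the coactivator PGC1β. The fourth holds wild-type cells given DMSO with vehicle, DMSO with KLA, or KLA with a TBK1 inhibitor (TBK1i). Neither inhibitor was given without KLA, and by the study's methods both were added when serum was withdrawn, before KLA. Floxed alleles were carried by the WT controls as well as by the NKO cells. LysMCre was carried by the NKO and Pgc1b_flox_Cre cells and not by their controls. An effect of the Cre allele and one of the deletion therefore cannot be told apart.

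Both families are large or mid-sized GTPases of cell-autonomous immunity. Guanylate-binding proteins assemble on the surface of cytosolic bacteria and on pathogen vacuoles and help the noncanonical inflammasome caspase to reach lipopolysaccharide, and GBP5 is known to promote NLRP3 inflammasome assembly. Among the immunity-related GTPases, Iigp1 (Irga6) and Ifi47 (Irgd) belong to the effector class that loads onto pathogen vacuoles, whereas Irgm1, Irgm2 and Igtp (Irgm3) are regulators that keep the effectors off the membranes of the host cell. Their genes are textbook targets of interferon-γ and type I interferon. Type I interferon is known to act at interferon-stimulated response elements (ISRE) and interferon-γ at gamma-activated sites (GAS), and TLR3 and TLR4 signal through TRIF and the kinase TBK1 to induce Ifnb1, the gene of IFNβ, alongside NFκB.

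Gbp2, Gbp3, Gbp5 and Gbp7 lie in the same stretch of the forward strand of chromosome 3 (mm10), from the start of Gbp5 at 142496934 to the end of Gbp2 at 142638008. Genes outside the 10 that may lie in this stretch were not placed. Igtp (chromosome 11, 58199556 to 58207592) and Irgm2 (chromosome 11, 58214977 to 58222783) are neighbours on the forward strand. Irgm1 (48865245 to 48871420, reverse strand) and Ifi47 (49076587 to 49096987, forward strand) lie elsewhere on chromosome 11, and Gbp9 lies on chromosome 5 (105076466 to 105110292, reverse strand). RefSeq promoter windows of GRCm38.p6, covering 250 bases before to 50 bases after the annotated start, were used for 8 of the 10 genes. Gbp9 had no window, and Iigp1 was left out of the search by choice, so the counts below say nothing of these genes.

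An ISRE, searched as GAAANNGAAA on both strands, was found in 7 of the 8 windows, against 3.44% of all 32851 windows. A GAS, searched as TTCNNNGAA, was found in 4 of 8 (Gbp5, Gbp7, Irgm2 and Igtp), against 8.30% of all windows. The NFκB consensus was found in 1 of 8, that of Gbp5, against 4.51% of all windows; this motif was added to the search after the expression values had been seen. No match to any of these motifs was found in the window of Ifi47. A match describes the letters of the window and is not evidence of a bound factor. The stretches that carry the matches are shown because the members they belong to differ in their response to TBK1i, with the matches in capitals, 5′ to 3′ along the strand of the gene.
Gbp2, ISRE, chr3:142620592-142620625, forward strand: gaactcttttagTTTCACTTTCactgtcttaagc
Gbp3, 2 overlapping ISRE, chr3:142559987-142560026, forward strand: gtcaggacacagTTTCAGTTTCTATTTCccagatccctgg
Gbp5, ISRE, chr3:142496757-142496790, forward strand: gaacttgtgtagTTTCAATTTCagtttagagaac
Gbp5, NFκB consensus and then GAS, chr3:142496845-142496902, forward strand: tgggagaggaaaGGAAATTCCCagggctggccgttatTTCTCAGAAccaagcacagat
Gbp7, 2 GAS and then ISRE, chr3:142530218-142530304, forward strand: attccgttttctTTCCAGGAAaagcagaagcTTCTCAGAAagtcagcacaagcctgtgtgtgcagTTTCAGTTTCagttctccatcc
Irgm1, 2 overlapping ISRE, chr11:48871423-48871462, reverse strand: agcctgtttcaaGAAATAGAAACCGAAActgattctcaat
Irgm2, GAS and then ISRE, chr11:58214890-58214934, forward strand: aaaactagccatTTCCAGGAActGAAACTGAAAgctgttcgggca
Igtp, GAS and then ISRE, chr11:58199499-58199543, forward strand: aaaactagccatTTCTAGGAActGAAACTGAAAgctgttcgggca
Within the window the ISRE began 59 bases before the annotated start in Gbp2, 45 in Gbp3, 165 in Gbp5, 53 in Gbp7, 30 in Irgm1, 64 in Irgm2 and 34 in Igtp. A second GAS of Gbp5 began 245 bases before its start. The windows of Igtp and Irgm2 were alike over 247 of 264 aligned bases, 93.6%.

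Family members share sequence, and counts of near-identical stretches are uncertain. Of all 50-base windows of the member transcripts, 12.7% of those of Gbp7 also occurred in another gene, as did 11.8% for Igtp (shared with Irgm2), 9.56% for Gbp9, 7.77% for Irgm2 (mostly shared with Igtp), 3.83% for Gbp3, 3.20% for Iigp1, 2.54% for Ifi47, 2.07% for Gbp2, 0.782% for Irgm1 and 0.234% for Gbp5.

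The libraries held 8.32 M to 16.8 M gene counts (median 12.2 M), and all 22 replicate pairs differed by more than sampling noise. The lowest correlation within a pair, across genes, was 0.992. Levels are given in CPM, the count of a gene relative to the size of its library, scaled jointly over the 44 libraries. Ncor1 fell from 153 and 160.4 CPM in WT vehicle to 53.9 and 55.2 CPM in NKO vehicle, a log2 fold change of -1.54 ± 0.06 (SE, adjusted p = 5.78e-28). Lyz2, whose locus carries LysMCre, fell from 8769 and 8660.5 CPM to 4376 and 4435 CPM in the same comparison (log2 fold change -1.0 ± 0.09, adjusted p = 2.58e-07). Ppargc1b did not fall with its label: under KLA it stood at 7.56 and 6.57 CPM in Pgc1b_flox and at 9.97 and 8.54 CPM in the libraries labelled Pgc1b_flox_Cre (log2 fold change 0.38 ± 0.27, adjusted p = 0.275). Lyz2 did fall in the same libraries, from 7795 and 8025 to 4405 and 4291 CPM under KLA (-0.87 ± 0.05, adjusted p = 2.90e-16). Counts over a whole transcript cannot show the loss of single exons, so these libraries are named by their label throughout. The study also examined PGC1β protein in BMDMs of both genotypes by immunoblot, a measure that RNA counts do not hold. The summed level of 6 macrophage markers was 8879 to 22085 CPM in every library.

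Several features of single groups stand beside the results below, and their part in them was not tested. WT vehicle replicate 2 had higher levels of all 10 GTPases than replicate 1, from 1.34 times (Igtp) to 5.19 times (Iigp1), so each comparison with WT vehicle is also given without it. The dates in the column names place WT_KLA 115 days, RANKL of both genotypes 536 days and NKO_KLA 1516 days before the WT and NKO libraries of vehicle, poly I:C, IFNβ and IL4, which share 1 date. Y-linked genes had at least 578 counts in the NKO_KLA libraries and in the 8 libraries of the Pgc1b table and at most 5 in all others, so WT_KLA and NKO_KLA also differ in sex. Date, sex and genotype cannot be told apart between WT_KLA and NKO_KLA. In bulk RNA, fewer cells of a type and less RNA per cell cannot be told apart either.

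All 10 GTPases were low in vehicle and highest after a TLR ligand. Over the 22 group means, the highest level was that of wild-type KLA in 5 genes (Gbp3, Gbp5, Gbp7, Irgm1 and Ifi47), WT poly I:C in 4 (Gbp2, Gbp9, Igtp and Iigp1) and NKO poly I:C in Irgm2. The lowest level was that of NKO vehicle in 5 genes (Gbp3, Gbp5, Gbp7, Gbp9 and Iigp1). Gbp5 had the widest range, 5012 times from 0.897 ± 0.186 CPM (mean ± SD, n = 2) in NKO vehicle to 4496 ± 160 CPM in wild-type KLA, and Irgm2 the narrowest, 44.7 times. Of the 21 pairs of neighbours in the order of levels, 6 (Gbp9, Irgm2 and Ifi47) to 11 (Gbp5 and Irgm1) overlapped between their libraries, and the order of such neighbours does not exceed the spread between replicates.

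**Figure D1:**
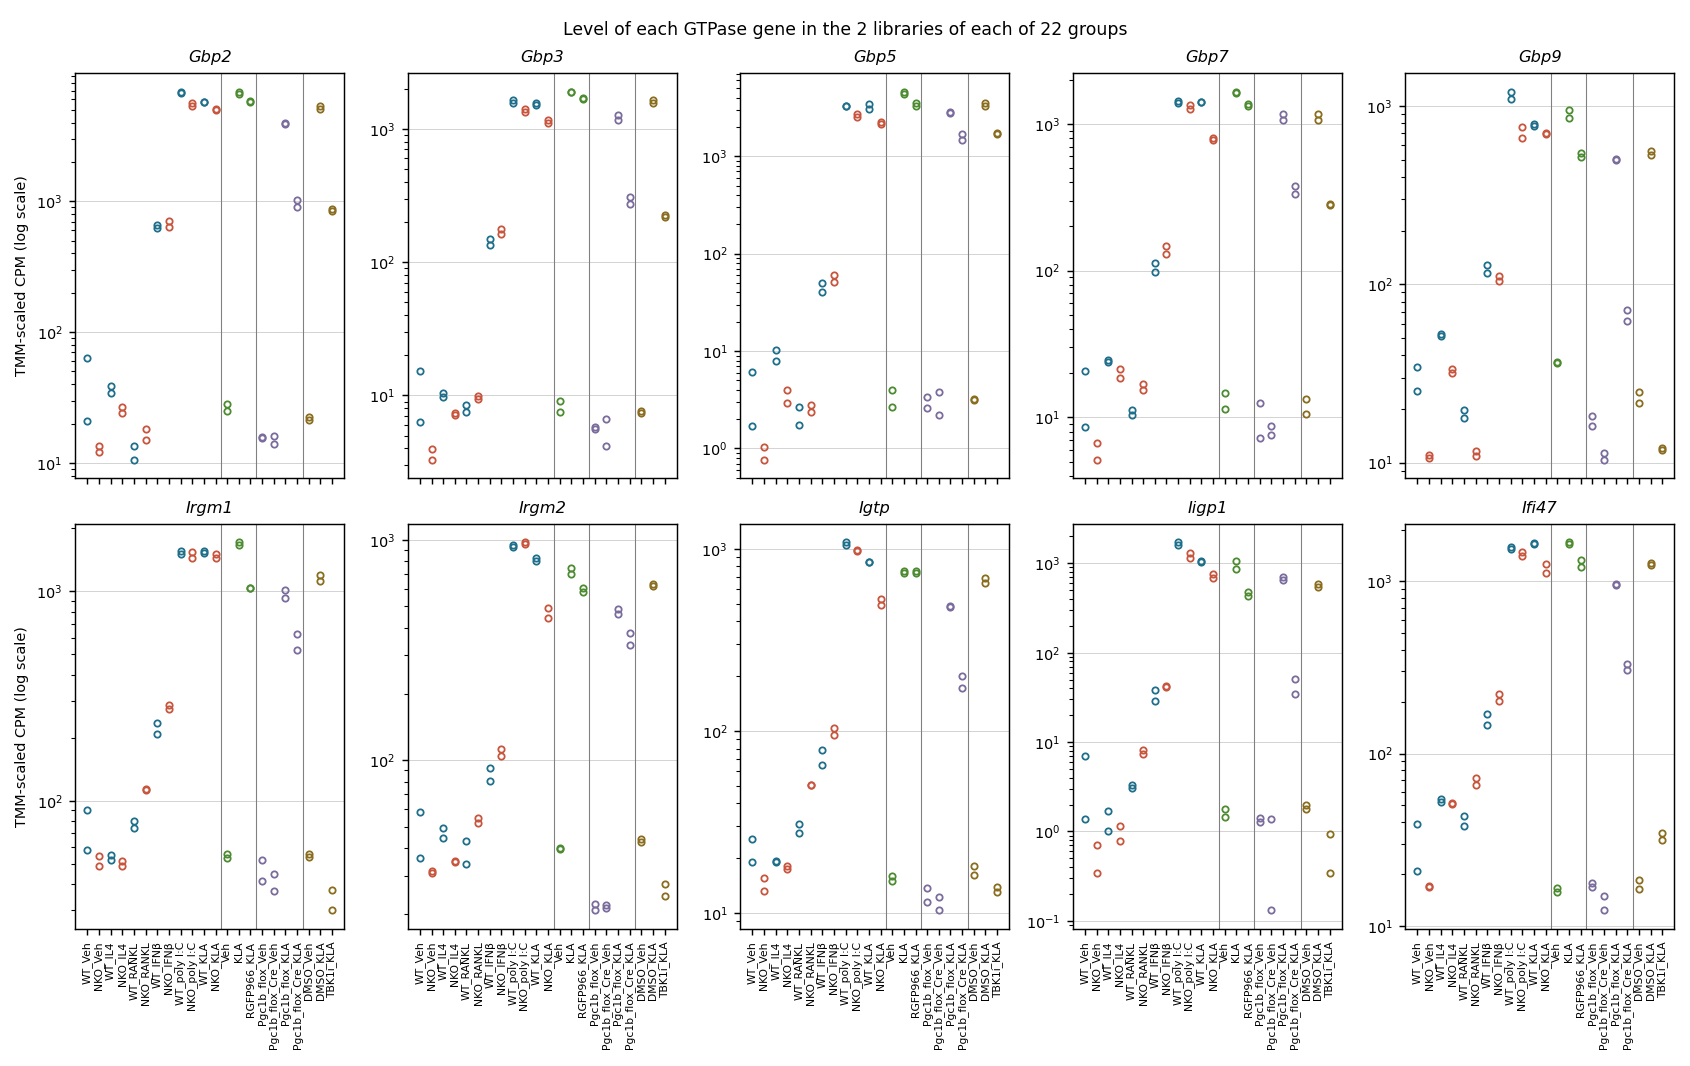
Level of each GTPase in each of the 44 libraries, on a log scale, as jointly scaled CPM by group, with 1 point per library. Groups given KLA or poly I:C, other than TBK1i with KLA, stand above the vehicle groups, and IFNβ lies between them for 8 of the 10 genes. The libraries labelled Pgc1b_flox_Cre with KLA lie below IFNβ for Gbp9 and overlap it for Iigp1. WT vehicle replicate 2 lies above replicate 1 for all 10 genes.

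Per kilobase of transcript, the scale on which genes can be compared, Gbp2 was the most abundant of the 10 in WT KLA at 2345 ± 5.95 CPM per kb. Gbp5 followed at 1073 ± 88.9, Ifi47 at 929 ± 8.71, Irgm1 at 670.3 ± 9.21 and Gbp3 at 543 ± 10.2 CPM per kb. The other genes were Igtp at 419.9 ± 0.242, Iigp1 at 339 ± 6.43, Gbp7 at 252 ± 1.49, Irgm2 at 233 ± 5.53 and Gbp9 at 141 ± 1.54 CPM per kb. In WT vehicle the order was different: Irgm1 stood first at 32.3 ± 9.73 CPM per kb, whereas Gbp5 stood at 1.28 ± 1.02 and Iigp1 at 1.35 ± 1.30 CPM per kb. Behind Irgm1 came Gbp2 (17.4 ± 12.5), Ifi47 (16.7 ± 7.18) and Irgm2 (13.5 ± 4.43), all in CPM per kb, with libraries that overlapped between neighbours.

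KLA raised all 10 genes in WT BMDMs, where 25.4% of the 13407 genes tested were called higher (an adjusted p under 0.05 with more than a 1.5-fold difference). Gbp5 stood at 1.69 and 6.04 CPM in the WT vehicle libraries and at 3418 and 3039 CPM in WT KLA, and no library of one group came near the other. Its log2 fold change of 9.62 ± 0.24 (adjusted p = 7.41e-14) was the largest of the 10. Iigp1, an effector, rose from 1.36 and 7.07 CPM to 1072 and 1044 CPM (7.88 ± 0.27, adjusted p = 2.75e-12), and Gbp2 from 20.8 and 63.9 CPM to 5717 and 5738 CPM (7.0 ± 0.33, adjusted p = 1.24e-10). The smallest log2 fold changes were 4.03 ± 0.15 for Irgm2 and 4.29 ± 0.14 for Irgm1. Between these lay Gbp3 (7.07), Gbp7 (6.51), Ifi47 (5.71), Igtp (5.16) and Gbp9 (4.63). The median of the 10 was 6.11, against -0.14 over all genes tested. All 10 were called again, with log2 fold changes of 4.41 to 10.81, when WT vehicle replicate 2 was left out. WT_KLA and WT vehicle differ in date, and the summed level of 5 stromal markers was 0.164 and 0.501 CPM in WT KLA against 100.0 and 90.4 CPM in WT vehicle.

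The same rise was measured within 1 date in the other tables. KLA against vehicle gave log2 fold changes of 4.13 to 10.35 in wild-type cells (10 called higher, against 27.9% of all genes), 4.39 to 9.89 in Pgc1b_flox cells (10 called higher, against 22.8%) and 3.84 to 10.07 in DMSO-treated cells (10 called higher, against 29.6%). Gbp5 had the largest value in each of these tables, and Iigp1 the second largest. In the libraries labelled Pgc1b_flox_Cre, KLA also raised all 10 (19.2% of all genes), by 2.62 (Gbp9) to 9.05 (Gbp5).

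After poly I:C all 10 genes were called higher in WT (22.2% of all genes), with a median log2 fold change of 6.09 and a range of 4.25 (Irgm2) to 9.66 (Gbp5). Gbp5 stood at 3276 and 3289 CPM, Gbp2 at 6764 and 6890.0 CPM, and Iigp1 at 1606 and 1720.4 CPM. Both poly I:C libraries lay above both WT KLA libraries for Gbp2, Gbp9, Igtp, Irgm2 and Iigp1 and below both for Ifi47. The libraries overlapped for the other 4. How many of all genes lie apart in this way was not counted. The 2 ligands also differ in date, and their difference was not tested. The range was 4.63 to 10.85 without WT vehicle replicate 2.

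IFNβ itself gave a smaller rise at 6 h. All 10 genes were called higher, where 4.09% of all genes were. Gbp2 reached 620.4 and 656 CPM (log2 fold change 3.90 ± 0.30, adjusted p = 2.67e-07), Gbp3 133 and 149 CPM (3.70 ± 0.19, adjusted p = 4.87e-09) and Gbp5 40.7 and 49.6 CPM (3.53 ± 0.28, adjusted p = 4.08e-07). The other values were 2.98 for Iigp1, 2.84 for Gbp7, 2.40 for Ifi47, 2.03 for Gbp9, 1.66 for Igtp, 1.57 for Irgm1 and 0.86 for Irgm2. A fit of only the WT vehicle and IFNβ libraries called 3 of the 10 in place of all, the Irgm2 call was lost without WT vehicle replicate 1, and without WT vehicle replicate 2 all 10 were called, at 1.24 to 4.92.

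**Figure D2:**
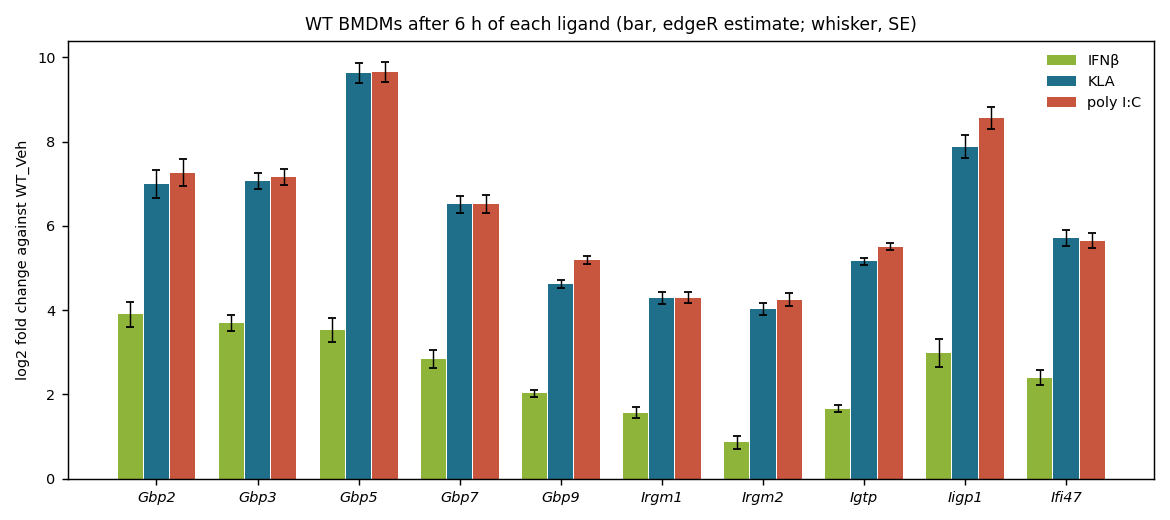
Log2 fold change against WT vehicle of each GTPase in WT BMDMs after 6 h of IFNβ, KLA or poly I:C (bars, edgeR estimate; whiskers, SE). KLA and poly I:C bars run from 4.03 (Irgm2, KLA) to 9.66 (Gbp5, poly I:C), and each IFNβ bar is shorter, at 0.86 to 3.90.

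Set directly against each other, poly I:C exceeded IFNβ for all 10 genes (20.5% of all genes called higher), and the genes differed in how far. The IFNβ mean was 1.38% of the poly I:C mean for Gbp5, 2.02% for Iigp1, 6.71% for Igtp, 7.50% for Gbp7, 9.35% for Gbp2, 10.7% for Gbp9 and 14.5% for Irgm1. The log2 difference was 6.13 ± 0.18 for Gbp5 (adjusted p = 8.67e-13) and 5.58 ± 0.21 for Iigp1 (adjusted p = 1.11e-11), against 2.73 ± 0.13 for Irgm1 (adjusted p = 1.27e-10). By the study's methods each ligand was given at a single dose, so the values compare these cultures and not the strength of the ligands.

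IL4 and RANKL moved few of the genes. With IL4, 4 of 10 were called higher (6.63% of all genes): Gbp9 stood at 51.4 and 52.5 CPM against 25.3 and 34.3 CPM in WT vehicle (log2 fold change 0.81 ± 0.10, adjusted p = 1.71e-07), Ifi47 at 52.1 and 54.4 against 20.8 and 38.9 CPM (0.85 ± 0.19, adjusted p = 0.00408), Gbp5 at 10.3 and 7.99 CPM (1.25 ± 0.37, adjusted p = 0.0207) and Gbp7 at 23.8 and 24.5 CPM (0.73 ± 0.25, adjusted p = 0.0425). Without WT vehicle replicate 2, Gbp2 (0.82) and Gbp3 (0.68) were called higher as well, from values of -0.20 and -0.08, and with only the compared groups in the fit 1 gene was called. Without WT vehicle replicate 1 the calls of Gbp5, Gbp7 and Ifi47 were lost, and without WT_IL4 replicate 1 those of Gbp5 and Gbp7. With RANKL for 12 h, against vehicle for 6 h and at another date, Gbp2 (13.5 and 10.6 CPM, log2 fold change -1.80 ± 0.38, adjusted p = 0.000937) and Gbp9 (19.7 and 17.8 CPM, -0.65 ± 0.11, adjusted p = 1.23e-05) were called lower (19.8% of all genes). Without WT vehicle replicate 2, Gbp2 alone was called lower, at -0.78 in place of -1.80, and Ifi47 (0.98), Igtp (0.61) and Iigp1 (1.23, from -0.39) were called higher, and without replicate 1 in its place 6 genes were called. The 6 osteoclast markers summed to 240.1 and 231 CPM with RANKL against 1057 and 908 CPM in WT vehicle, lower in the libraries whose descriptions say osteoclast. The RANKL libraries also held 756 to 981 CPM of 6 neutrophil markers, against at most 3.77 CPM in WT vehicle, with none of Ngp, Camp, Ltf, Ly6g, Elane and Mpo at 0 in both libraries of a RANKL group, whereas Ly6g, Elane and Mpo were at 0 in WT vehicle.

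The share of the KLA level that remained with TBK1i differed between the 10 genes. All 10 were lower in TBK1i with KLA than in DMSO with KLA (18.3% of all genes called lower), with a largest adjusted p of 2.83e-187. Gbp5 stood at 3277 and 3558 CPM in DMSO with KLA and at 1732 and 1676 CPM in TBK1i with KLA, so that 49.9% was kept (log2 fold change -1.01 ± 0.03). The other 3 members on chromosome 3 kept less. Gbp7 went from 1069 and 1176 to 285 and 280.4 CPM (25.2%, -1.99 ± 0.04), Gbp2 from 5032 and 5342 to 869.7 and 837 CPM (16.4%, -2.61 ± 0.04) and Gbp3 from 1571 and 1639.9 to 226 and 217 CPM (13.8%, -2.86 ± 0.04). The libraries of the 2 groups were far apart for each of these genes.

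The members on other chromosomes kept at most 4.15% of the KLA level. Irgm2 went from 615 and 631 to 27.5 and 24.2 CPM (4.15%), Irgm1 from 1118 and 1191 to 29.9 and 37.7 CPM (2.93%) and Ifi47 from 1278 and 1252 to 34.5 and 31.6 CPM (2.61%). Gbp9, a guanylate-binding protein gene on another chromosome, went from 528 and 558 to 12.0 and 11.8 CPM (2.19%), Igtp from 649 and 694 to 13.1 and 13.9 CPM (2.01%) and Iigp1 from 539 and 585 to 0.926 and 0.347 CPM (0.113%), where the latter are 9 and 3 reads. The log2 fold changes of these 6 genes ran from -4.59 ± 0.06 (Irgm2) to -9.73 ± 0.11 (Iigp1). The libraries of the groups were further apart for these genes than for Gbp2, Gbp3, Gbp5 and Gbp7.

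Measured against DMSO with vehicle, the genes differed in direction. No group received TBK1i without KLA, and the inhibitor was added before KLA. An effect of TBK1i on the resting level and one on the KLA response therefore cannot be told apart. Gbp5 (3.14 and 3.19 CPM in DMSO vehicle, log2 fold change 9.06 ± 0.07), Gbp2 (22.3 and 21.3 CPM, 5.28 ± 0.05), Gbp3 (7.64 and 7.41 CPM, 4.87 ± 0.07) and Gbp7 (13.3 and 10.6 CPM, 4.55 ± 0.06) stayed above vehicle in TBK1i with KLA, as did Ifi47 by 0.91 ± 0.09 (adjusted p = 2.27e-25). These were 5 of 10 called higher, where 26.8% of all genes were. Gbp9 (-0.96 ± 0.11, adjusted p = 5.79e-18), Irgm1 (-0.71 ± 0.07, adjusted p = 8.45e-23), Irgm2 (-0.75 ± 0.08, adjusted p = 5.24e-20) and Iigp1 (-1.52 ± 0.40, adjusted p = 0.000299) were called below vehicle, where 30.5% of all genes were. Igtp was not called (-0.36 ± 0.11, adjusted p = 0.00191). The call of Irgm1 was lost without TBK1i_KLA replicate 1. Of the windows shown above, those of Gbp2, Gbp3, Gbp5, Gbp7, Irgm1, Irgm2 and Igtp all carry an ISRE, and the NFκB match is that of Gbp5. The window of Ifi47 held no match, and no window was used for Gbp9 and Iigp1. The NFκB motif was searched after the values had been seen, and the part of these matches was not tested.

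**Figure D3:**
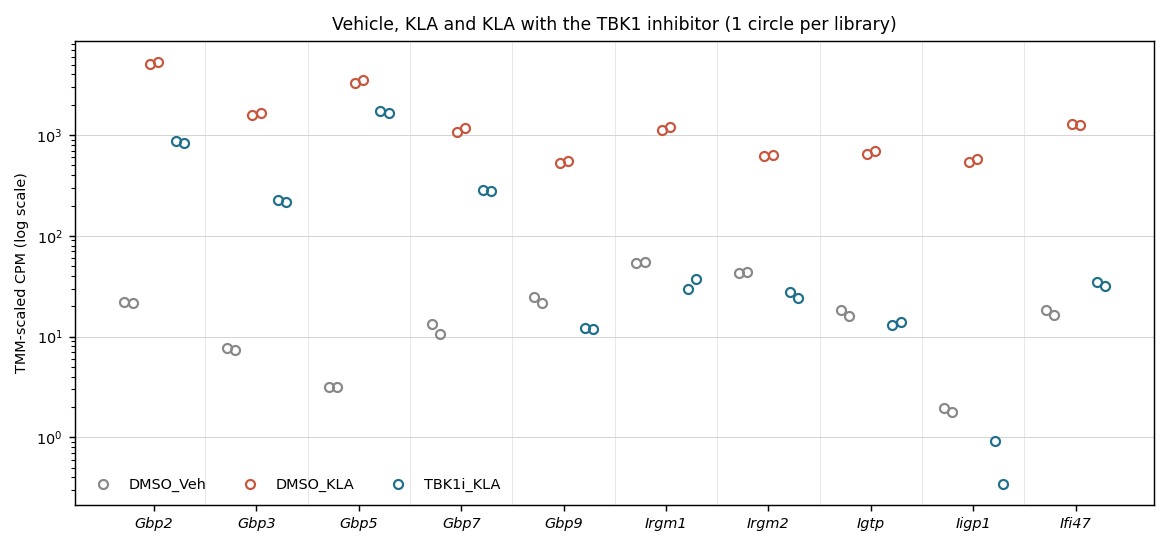
Level of each GTPase in DMSO with vehicle, DMSO with KLA and TBK1i with KLA, 2 libraries each, as jointly scaled CPM on a log scale. With TBK1i the points of Gbp2, Gbp3, Gbp5 and Gbp7 stay between the vehicle and KLA points, with Gbp5 at 49.9% of its KLA level, those of Ifi47 lie slightly above vehicle, and those of the other 5 genes lie below it.

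The genes of interferon signalling were measured in the same libraries. Ifnb1 had 0 counts in all libraries of DMSO vehicle and of TBK1i with KLA, and 5.09 and 4.85 CPM in DMSO with KLA, at least 20.5-fold and at least 15.7-fold higher than a floor of 3 counts per library in the first and second group. Irf1, a transcription factor of many of these genes, kept part of its rise, at 66.2 and 70.8 CPM in vehicle, 614 and 640.1 CPM with KLA, and 375 and 357 CPM with TBK1i added (log2 fold change against KLA -0.78 ± 0.04, adjusted p = 8.77e-78). Of 15 interferon signalling genes (ligand, receptors, kinases, transcription factors and inhibitors), 9 were called lower by TBK1i and 1 higher (Ifngr1, 0.98). Of all genes, 18.3% were called lower and 15% higher. Socs1, an inhibitor of JAK kinases, fell by 1.33 on the log2 scale, and Usp18, an inhibitor of the type I receptor, by 6.01. All 13 tested genes among 16 other members of the GTPase families were called lower, by 3.64 (Gbp2b) to 8.58 (Tgtp2) on the log2 scale, with Gbp4 at 171 and 184 CPM without and 1.13 and 0.231 CPM with TBK1i. Of 12 partner genes (inflammasome and autophagy conjugation), 5 were called lower, with Aim2 at -2.83 ± 0.08 and Casp4 at -0.85 ± 0.05, whereas Nlrp3 was not called (0.38 ± 0.04).

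RGFP966 lowered 3 of the 10 genes in KLA-treated wild-type cells, where 9.54% of all genes were called lower. Iigp1 went from 1062 and 862 to 435 and 480.1 CPM (47.5% of the KLA mean, log2 fold change -1.02 ± 0.06, adjusted p = 6.96e-20), Gbp9 from 953 and 851 to 541 and 518 CPM (58.7%, -0.71 ± 0.06, adjusted p = 5.05e-19) and Irgm1 from 1713 and 1666 to 1039.7 and 1041 CPM (61.6%, -0.65 ± 0.05, adjusted p = 6.06e-18). The libraries did not overlap for any of the 3. Igtp stood at 757 and 735 CPM with KLA and at 741 and 759 CPM with RGFP966, 100.6% of the mean (0.06 ± 0.05, adjusted p = 0.357). The other 6 genes lay between 75.8% (Gbp5) and 89.2% (Gbp3), short of the 1.5-fold limit. Against vehicle, all 10 remained called higher with RGFP966 and KLA, by 3.87 (Gbp9) to 10.00 (Gbp5), where 28% of all genes were called higher. Ifnb1 stood at 4.73 and 7.03 CPM with KLA and 0.957 and 1.60 CPM with RGFP966 (-2.16 ± 0.37, adjusted p = 5.96e-07). One of the 2 RGFP966 libraries carries another date than the rest of its table.

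In the libraries labelled Pgc1b_flox_Cre, 9 of 10 genes were lower under KLA than in Pgc1b_flox (12.9% of all genes called lower). Iigp1 went from 651 and 705 to 34.9 and 50.8 CPM, 6.32% of the control (log2 fold change -4.0 ± 0.22, adjusted p = 8.27e-06). Gbp9 went from 506 and 499.8 to 62.3 and 71.4 CPM (13.3%, -2.92 ± 0.08, adjusted p = 1.54e-25). Gbp3 (24.1%, -2.07 ± 0.08), Gbp2 (24.5%, -2.04 ± 0.06), Gbp7 (31.8%, -1.66 ± 0.12), Ifi47 (33.3%, -1.59 ± 0.07) and Igtp (38.5%, -1.39 ± 0.08) followed. Gbp5, at 2750.5 and 2860.3 CPM against 1454 and 1679 CPM (55.8%, -0.85 ± 0.07), and Irgm1 (59.2%, -0.77 ± 0.10) were lowered least among the called genes. Irgm2 went from 462 and 485 to 335 and 376 CPM (75.1%, -0.42 ± 0.07, adjusted p = 2.49e-06), short of the fold limit. The libraries of the groups did not overlap for any of the 10. The osteoclast markers summed to 405 and 415 CPM in Pgc1b_flox and 773 and 776 CPM in Pgc1b_flox_Cre under KLA, and their part was not tested.

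Under vehicle, 1 of the 10 genes differed between the same genotypes, where 0.139% of all genes were called lower. Gbp9 stood at 18.3 and 16.0 CPM in Pgc1b_flox and at 11.4 and 10.4 CPM in Pgc1b_flox_Cre (-0.65 ± 0.12, adjusted p = 0.00182), a call that was lost without Pgc1b_flox_Veh replicate 1 or without Pgc1b_flox_Cre_Veh replicate 2. The difference between the KLA and the vehicle effect was called for 7 genes (11.2% of all genes): Gbp9 (-2.28 ± 0.14), Gbp2 (-1.97 ± 0.12), Gbp3 (-1.97 ± 0.19), Gbp7 (-1.39 ± 0.25), Ifi47 (-1.24 ± 0.13), Igtp (-1.23 ± 0.15) and Gbp5 (-0.84 ± 0.24). It was -3.23 ± 1.06 for Iigp1, which has at most 24 reads in each Pgc1b_flox_Cre vehicle library (adjusted p = 0.0639).

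**Figure D4:**
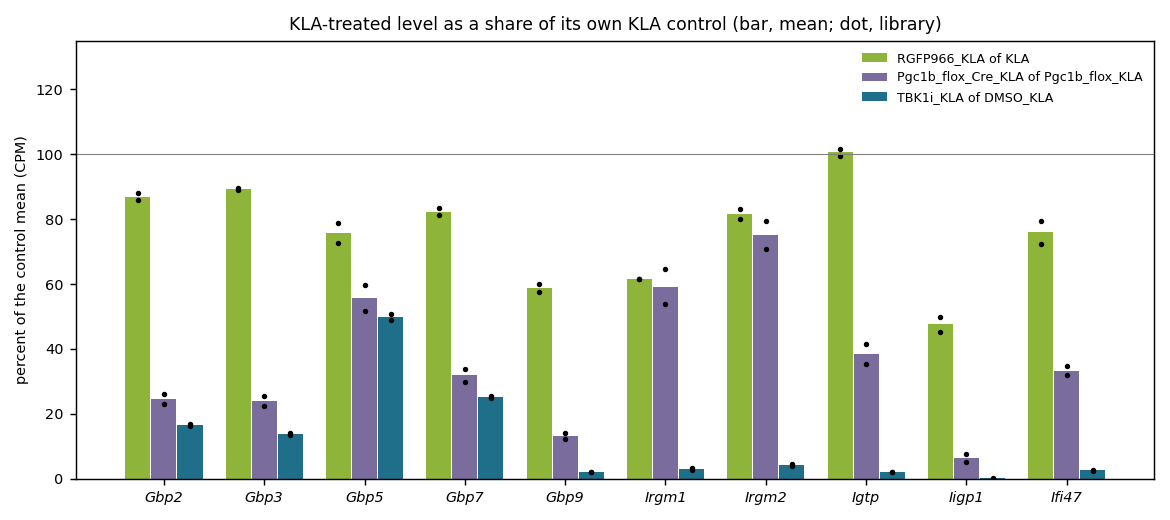
Mean level of each GTPase as a percentage of its KLA control for TBK1i with KLA, libraries labelled Pgc1b_flox_Cre with KLA, and RGFP966 with KLA (bar, mean; dot, library; line, the control mean). Iigp1 has the lowest percentage in each, at 0.113%, 6.32% and 47.5%, and Gbp5 the highest with TBK1i, at 49.9%.

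Ifnb1 did not fall with the GTPases in the libraries labelled Pgc1b_flox_Cre. It stood at 5.64 and 8.39 CPM in Pgc1b_flox and 9.61 and 9.22 CPM in Pgc1b_flox_Cre under KLA (0.42 ± 0.32, adjusted p = 0.297). Usp18 fell by 2.24 on the log2 scale, whereas Irf1 stood at 709.8 and 731 against 939 and 1006 CPM (0.42 ± 0.06, under the fold limit). In the interferon signalling list 7 of 15 genes were called lower and 1 higher (Ifngr1, 2.17). Of all genes, 12.9% were called lower and 13.2% higher. Among the other GTPases 11 of 12 tested were called lower, with Gbp4 at 138 and 148 against 6.80 and 9.81 CPM (-4.12 ± 0.14). The partner list had 3 genes lower (Gsdmd, Aim2 and Atg16l1) and 1 higher (Atg7) of 12, beside the same shares of all genes.

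Most of the genes were called lower in NKO than in WT under vehicle, and the number called leans on 1 library. In NKO vehicle 9 of 10 were called lower than in WT vehicle (3.8% of all genes), with log2 fold changes of -0.62 (Irgm2) to -2.94 (Iigp1), and Irgm1 was at -0.54 ± 0.14. Gbp9 stood at 25.3 and 34.3 CPM in WT and 11 and 10.7 CPM in NKO (-1.47 ± 0.12, adjusted p = 4.29e-10), Gbp2 at 20.8 and 63.9 against 13.5 and 12.2 CPM (-1.74 ± 0.38, adjusted p = 0.00481) and Gbp3 at 6.30 and 15.2 against 3.29 and 3.99 CPM (-1.56 ± 0.33, adjusted p = 0.00407). These 3 were the genes still called without WT vehicle replicate 2, at -1.24 ± 0.12 for Gbp9, -0.72 ± 0.12 for Gbp2 and -0.79 ± 0.20 for Gbp3, and the values of all 10 then lay between -0.20 and -1.32. The Gbp2 call was lost without NKO vehicle replicate 2, and 3 genes were called without NKO vehicle replicate 1 and 5 without its replicate 2. A fit of only the WT and NKO vehicle libraries called 2. The 6 osteoclast markers summed to 1057 and 908 CPM in WT and 2066 and 2041 CPM in NKO vehicle. The 6 macrophage markers summed to 15668 and 16010 against 10579 and 10863 CPM. Among them Lyz2, whose locus carries LysMCre, went from 8769 and 8660.5 to 4376 and 4435 CPM. The part of these markers in the result was not tested. Set beside the 8 control vehicle libraries of the 4 tables, both NKO vehicle libraries lay below all 8 for 6 genes (Gbp2, Gbp3, Gbp5, Gbp7, Gbp9 and Iigp1), where 8.78% of genes did so. This comparison was chosen after the values had been seen.

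Under KLA 3 of 10 genes were lower in NKO than in WT (19% of all genes called lower). Gbp7 stood at 1409 and 1421 CPM in WT and 777 and 801 CPM in NKO (-0.82 ± 0.15, adjusted p = 0.000282), Irgm2 at 830.3 and 803 against 443 and 493 CPM (-0.78 ± 0.13, adjusted p = 0.000145) and Igtp at 847 and 848 against 494 and 530.0 CPM (-0.70 ± 0.07, adjusted p = 2.14e-11). Irgm1 was at 1557 and 1527 CPM in WT and 1447 and 1502 CPM in NKO (-0.04 ± 0.12, adjusted p = 0.801). Because date and sex differ between these groups, the KLA controls of the other tables were set beside NKO KLA in 1 joint fit of 10864 genes, which holds 9 of the genes (Gbp7 is listed with another transcript in the Pgc1b table). Against wild-type KLA 3 were called lower (Gbp5 -1.04, Gbp3 -0.74 and Irgm2 -0.63; 23.9% of all genes) and against DMSO with KLA 1 (Gbp5, -0.66; 22.5%). Against Pgc1b_flox KLA, the control whose Y-linked counts are like those of NKO KLA, edgeR called none (21.1% of all genes called lower). Of the 6 genes at an unadjusted p under 0.05 there, 4 were higher in NKO (Irgm1 0.52, Gbp9 0.40, Gbp2 0.29 and Ifi47 0.24) and 2 lower (Gbp5 -0.44 and Gbp3 -0.17), and Igtp was at 0.01 ± 0.05. The T and NK cell markers summed to 55.5 and 66.4 CPM in NKO KLA against 18.9 and 18.0 CPM in WT KLA. Cd3e, Cd3g, Ncr1 and Ifng, the gene of interferon-γ, were at 0 in both NKO KLA libraries. Ifng had reads in WT KLA, wild-type KLA, DMSO with KLA, Pgc1b_flox KLA and RGFP966 with KLA. It was at 0 in both libraries of TBK1i with KLA, Pgc1b_flox_Cre KLA, WT poly I:C and NKO poly I:C. The part of Ifng in the GTPase levels was not tested.

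With the other ligands, where both genotypes share a date, the genotypes differed in few genes. After poly I:C, Gbp9 was called lower in NKO (1087 and 1201 against 660.4 and 761 CPM, -0.64 ± 0.07, adjusted p = 8.60e-08; 2.92% of all genes), a call lost without WT_PolyIC replicate 2 or NKO_PolyIC replicate 1, and the other 9 lay between -0.38 and 0.09. After IFNβ edgeR called none of the 10 in either direction (3.8% of all genes), DESeq2 called 0 and 6 had an unadjusted p under 0.05. The largest difference was that of Igtp, at 64.8 and 78.4 CPM in WT and 94.6 and 104 CPM in NKO (0.48 ± 0.08, adjusted p = 1.70e-05, under the fold limit). After IL4, Gbp9 (51.4 and 52.5 against 31.7 and 33.4 CPM, -0.69 ± 0.10, adjusted p = 8.77e-06) and Gbp5 (10.3 and 7.99 against 2.93 and 3.97 CPM, -1.42 ± 0.38, adjusted p = 0.0217) were called lower (2.33% of all genes). The Gbp5 call was lost without WT_IL4 replicate 1 or either NKO_IL4 library.

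After RANKL 2 GTPase genes were called higher in NKO. Igtp stood at 30.8 and 27.5 CPM in WT and 50.3 and 50.8 CPM in NKO (0.81 ± 0.09, adjusted p = 1.02e-08) and Ifi47 at 43.7 and 37.8 against 65.4 and 71.7 CPM (0.76 ± 0.18, adjusted p = 0.00587), where 6.21% of all genes were called higher. The Ifi47 call was lost without WT_RANKL replicate 2. Iigp1 stood at 3.32 and 3.07 against 7.42 and 8.17 CPM, without overlap (1.29 ± 0.49, adjusted p = 0.0601). Gbp9 went the other way, at 19.7 and 17.8 against 11 and 11.6 CPM (-0.72 ± 0.14, adjusted p = 0.000241), where 6.99% were called lower. The neutrophil markers summed to 872 and 756 CPM in WT and 979 and 981 CPM in NKO, and the 5 stromal markers to 212 and 188 against 227 and 319 CPM. The osteoclast markers summed to 240.1 and 231 against 301 and 416 CPM in these libraries described as osteoclast.

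Gbp9 was the 1 member whose NKO libraries lay below the WT libraries in 6 of 6 conditions, which 0.757% of 11757 genes did. Its called difference ran from -0.64 to -1.47 in vehicle, poly I:C, IL4 and RANKL, and it was not called with KLA (-0.13 ± 0.07) and IFNβ (-0.18 ± 0.08). With KLA its direction depended on the control: in the joint fit Gbp9 was at -0.37 against wild-type KLA, 0.35 against DMSO with KLA and 0.40 against Pgc1b_flox KLA. The other 9 genes lay below WT without overlap in 3 or 4 conditions and above WT in 1 to 3.

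**Figure D5:**
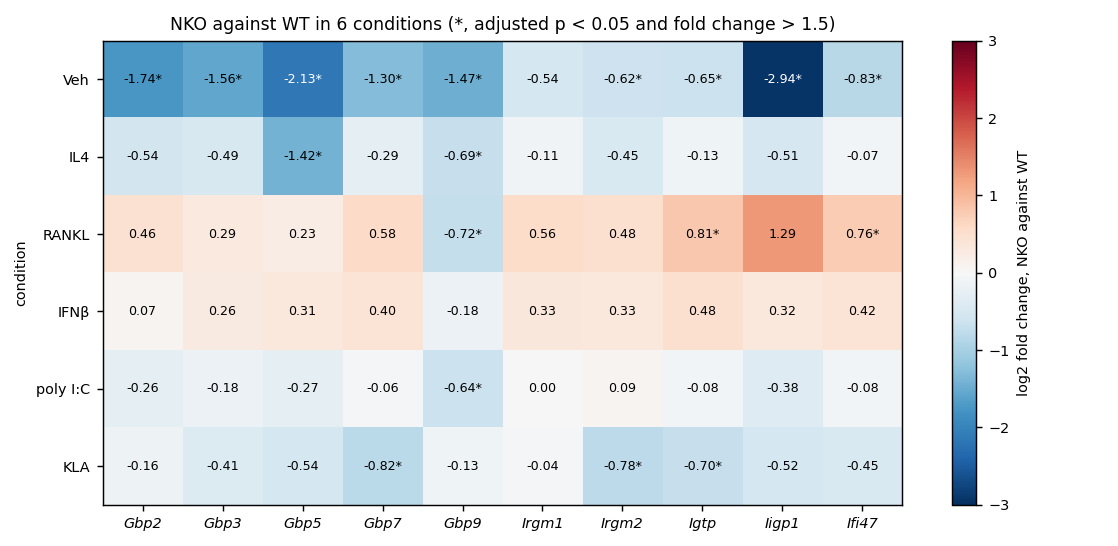
Heat map of the log2 fold change of NKO against WT (edgeR estimate, printed in each cell) for each GTPase in columns and the 6 conditions in rows, blue for lower and red for higher in NKO, with an asterisk for each call. All 10 genes lie below 0 in vehicle, from -0.54 to -2.94, and 9 of 10 lie above 0 with IFNβ and with RANKL, where Gbp9 is the exception at -0.18 and -0.72.

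Whether the NKO effect differed from that in vehicle was tested for each ligand, all against the same 4 vehicle libraries. Every called difference was positive, that is, the NKO effect was less negative than in vehicle or above 0. It was called for 4 genes with KLA (19.9% of all genes called higher), led by Gbp9 (1.34 ± 0.14, adjusted p = 8.96e-09), and for 3 with poly I:C (2.13%), 6 with IFNβ (0.552%), 1 with IL4 (0.351%, Gbp9 at 0.78 ± 0.16) and 9 with RANKL (7.26%). The KLA test also holds the differences in date and sex between WT_KLA and NKO_KLA, which cannot be told apart from genotype. With RANKL, Igtp was at 1.45 ± 0.15 (adjusted p = 9.57e-10), Ifi47 at 1.60 ± 0.29 (adjusted p = 0.000954) and Iigp1 at 4.23 ± 0.92 (adjusted p = 0.00361). Without WT vehicle replicate 1 the counts were 8 with KLA, 10 with poly I:C, 10 with IFNβ and 8 with IL4. Without WT vehicle replicate 2 they were 1 with KLA (Gbp9), 2 with poly I:C (Gbp3 and Gbp9), 6 with IFNβ, 0 with IL4 and 8 with RANKL, where Iigp1 was at 2.61. With the replicate included, 6 of 10 had an unadjusted p under 0.05 for IL4, and DESeq2 called 3. Leaving out a single NKO vehicle, WT IFNβ or NKO IFNβ library lowered the IFNβ count to as few as 2, and without NKO vehicle replicate 1 the KLA count was 2 and the poly I:C count 1.

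Other genes of the families and of the pathway moved as follows in WT cells. All 15 tested of the 16 other GTPases were called higher with KLA and with poly I:C, and 8 of 15 with IFNβ. The shares of all genes called higher were 25.4%, 22.2% and 4.09%. Gbp4 stood at 0.130 and 1.56 CPM in vehicle, 310.2 and 298 CPM with KLA, 536 and 606 CPM with poly I:C and 6.02 and 5.96 CPM with IFNβ. Tgtp1, an effector of the immunity-related family, stood at 0.0649 and 0.260 CPM, 25.3 and 22.9 CPM, 71.6 and 81.7 CPM, and 0.184 and 0.351 CPM in the same order, with no call for IFNβ (0.65 ± 0.84). Gbp2b and Gbp11 were called higher with KLA (4.36 ± 0.43 and 4.72 ± 0.66) and not called with IFNβ (-0.31 ± 0.75 and -0.52 ± 1.28).

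In the interferon signalling list, KLA gave 14 of 15 higher (25.4% of all genes) and 1 lower (Ifngr1, where 32.3% of all genes were called lower). Poly I:C gave 11 higher (22.2%) and 1 lower (Ifnar1, 25% of all genes). IFNβ gave 3 of 15 higher (4.09% of all genes), with Usp18 at 2.07 ± 0.18. Irf1 rose with KLA (2.62 ± 0.08) and poly I:C (3.94 ± 0.08) but stood at 95.5 and 92.6 CPM with IFNβ against 76.3 and 104 CPM in vehicle (0.05 ± 0.08, adjusted p = 0.706). Irf9 stood at 87.0 and 85.8 CPM with IFNβ against 58.6 and 68.1 CPM (0.44 ± 0.07, under the fold limit). Socs1 was raised by KLA (6.70 ± 0.13) and poly I:C (6.00 ± 0.14) and not by IFNβ (-0.65 ± 0.34, adjusted p = 0.173). Ifnb1 had 0 counts in WT vehicle, 7.06 and 4.84 CPM with KLA (at least 24.2-fold higher than the floor of 3 counts per library) and 7.65 and 8.81 CPM with poly I:C (at least 33.5-fold). In NKO it stood at 1.95 and 1.50 CPM with KLA (-1.75 ± 0.36, adjusted p = 3.34e-05) and at 2.85 and 3.57 CPM with poly I:C (-1.31 ± 0.30, adjusted p = 0.000854), and 9 of the 10 GTPases were not called in the latter comparison. Among 12 partner genes 6 were called higher with KLA and 6 with poly I:C, where 25.4% and 22.2% of all genes were. They were led by Nlrp3 (4.54 ± 0.08 and 3.46 ± 0.08) and Casp4, the caspase-11 gene (3.53 ± 0.12 and 3.28 ± 0.12). Gabarapl2, of the autophagy conjugation group, stood at 0.677 and 0.563 CPM in NKO KLA against 8.05 and 9.68 CPM in WT KLA (-3.78 ± 0.31), the groups that differ in date and sex.

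Over the 22 groups, with levels centred within each table, the 10 genes rose and fell together. Pearson's r between members, a description over groups that share libraries and stimuli, was 0.891 for Gbp9 and Gbp5 at the lowest, 0.953 at the median and 0.996 for Gbp3 and Gbp2 at the highest. Of 11747 other genes compared, the 5 whose pattern was most like the mean of the 10 were Stat2 (r = 0.996), Parp9 (0.993), Gbp6 (0.993), Ifih1 (0.993) and Samd9l (0.992), over the same 22 groups. Gbp6 is a further guanylate-binding protein gene, and Ifih1 encodes the RNA sensor MDA5.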

How the data were processed

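RNA-seq of poly(A) RNA from 44 BMDM libraries was analysed as 22 groups of 2 replicates, taken from the sample titles. The labels name no separate mice or cultures, so p-values measure the spread between these libraries. The values are raw counts as deposited by the authors in 4 tables: per the file headers and labels, reads were aligned to mm10 (STAR) and counted in exons of RefSeq transcripts with HOMER, with no normalization and 1 transcript per gene. The headers name no strand option, although the study's methods describe strand-specific counting, and reads of near-identical family members can be split or lost in such counting.

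The 4 tables were analysed separately in edgeR 4.0.16 (R 4.3.3): filterByExpr, TMM scaling, a robust quasi-likelihood fit of all groups of the table and 2-sided F-tests with Benjamini-Hochberg adjustment over the 13407 (NCoR), 12196 (RGFP966), 12205 (Pgc1b) or 12332 (TBK1i) genes tested. Genes were called at an adjusted p under 0.05 with more than a 1.5-fold difference. SEs are those implied by the F statistic. Values with ± are log2 fold changes with SE unless marked as levels with SD. With 2 libraries a group, an exact permutation test of 1 gene cannot reach p = 0.05. CPM levels were scaled by TMM over all 44 libraries, and per-kilobase levels divide by the transcript length in the tables. Depth was 8.32 M to 16.8 M counts, and a floor of 3 counts equals 0.179 to 0.360 CPM; both cover counting error only. The pipeline was tested on simulated data. Promoters are RefSeq windows of GRCm38.p6. Figures were drawn with matplotlib 3.10.9 in Python 3.11.15.

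The members, the gene lists and the naming rule (all members; of each list the 4 genes with the largest called change, plus fixed genes such as Ifnb1, Irf1 and Irf9; Ncor1, Ppargc1b, Tbk1 and Lyz2 as label checks; the 5 genes most alike in pattern) were chosen with earlier results of these data known. Other list genes were named after their values were seen, and some named by the rule are not reported here. Alternatives were DESeq2 1.42.0, its size factors, no filter, no fold limit, only the compared groups, a replicate block, other KLA controls and each replicate left out.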

Additional observations from a re-analysis of the deposited data

Results flagged for a closer look

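The NKO effect differed between a ligand and vehicle, by a test of the difference itself, for 4 of the 10 GTPases with KLA, 3 with poly I:C, 6 with IFNβ, 1 with IL4 and 9 with RANKL. Of all genes, 19.9%, 2.13%, 0.552%, 0.351% and 7.26% were called higher in the same order, with all libraries in the fit. All of these tests share the WT vehicle libraries, of which replicate 2 had the higher level of all 10 genes, and without it the counts were 1, 2, 6, 0 and 8. The KLA test also holds the differences in date and sex between WT_KLA and NKO_KLA, which cannot be told apart from genotype. The Cre effect in the Pgc1b table differed between KLA and vehicle for 7 of the 10, where 11.2% of all genes were called lower. The values ran from -0.84 (Gbp5) to -2.28 (Gbp9) among the called genes. No group has enough libraries for a test of single outlying samples.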

How the results depend on the processing

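Of 3007 values of single genes under the alternatives, 2772 kept their direction and their side of the threshold, 103 were no longer called, 90 became called and 42 changed sign, 4 of them with a call in at least 1 of the 2 fits compared. Those 4 were, without WT vehicle replicate 2, Gbp2 (0.82) and Gbp3 (0.68) with IL4 and Iigp1 (1.23) with RANKL, and Igtp (0.0054) in NKO KLA against Pgc1b_flox KLA. NKO KLA also changed sign against Pgc1b_flox KLA for Irgm1 (0.52), Gbp9 (0.40), Gbp2 (0.29), Ifi47 (0.24) and Iigp1 (0.022), and against DMSO with KLA for Irgm1 (0.34), Gbp9 (0.35) and Iigp1 (0.35). With DESeq2 size factors and with its Wald test, Irgm1 in NKO poly I:C was at -0.025 and Igtp in RGFP966 against KLA at -0.0034 and -0.0033. The other changes of sign came from a left-out replicate. With IL4 the values then ranged from -0.79 to 0.82 for Gbp2, -0.58 to 0.68 for Gbp3, -0.40 to 0.011 for Igtp and -0.30 to 0.38 for Irgm2. With RANKL they ranged from -1.13 to 1.23 for Iigp1, -0.91 to 0.36 for Gbp3, -0.91 to 0.33 for Gbp7, -0.21 to 0.41 for Irgm1, -0.58 to 0.095 for Irgm2 and -1.43 to 0.40 for Gbp5. Irgm1 in NKO poly I:C ranged from -0.050 to 0.056 and Gbp5 in NKO RANKL from -0.022 to 0.55. In Pgc1b_flox_Cre vehicle the ranges were -0.45 to 0.21 for Gbp3, -0.64 to 0.15 for Gbp7, -3.28 to 0.034 for Iigp1, -0.037 to 0.056 for Irgm2, -0.18 to 0.036 for Gbp2 and -0.43 to 0.34 for Gbp5. Differences of the NKO effect ranged with KLA from -0.28 to 0.97 for Gbp7, -0.13 to 0.76 for Ifi47, -0.28 to 0.13 for Igtp and -0.54 to 0.14 for Irgm2, and with IL4 from -0.21 to 0.46 for Irgm2 and -0.47 to 1.35 for Gbp5. With only the compared groups in the fit, 3 genes were called for IFNβ, 1 for IL4, 1 for RANKL and 2 for NKO vehicle. With no fold limit, 7 were called for NKO KLA, 1 for NKO IFNβ and 8 for RGFP966. NKO KLA gave 0 calls against Pgc1b_flox KLA and 1 against DMSO with KLA. DESeq2 called 7 (poly I:C), 10 (IFNβ) and 3 (IL4) differences of the NKO effect. The cause of these changes was not tested.

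Leaving out each replicate in turn, the calls ranged from 9 to 10 for IFNβ, 2 to 6 for IL4, 2 to 6 for RANKL, 3 to 10 for NKO vehicle, 3 to 4 for NKO KLA, 0 to 1 for NKO poly I:C, 0 to 1 for NKO IFNβ, 1 to 2 for NKO IL4, 2 to 5 for NKO RANKL, 0 to 2 for Pgc1b_flox_Cre vehicle and 8 to 9 for TBK1i against vehicle. Differences of the NKO effect ranged from 1 to 8 (KLA), 1 to 10 (poly I:C), 2 to 10 (IFNβ), 0 to 8 (IL4) and 7 to 10 (RANKL), and of the Cre effect from 6 to 9. KLA and poly I:C against vehicle, poly I:C against IFNβ and TBK1i against DMSO with KLA kept 10 calls, RGFP966 against KLA 3 and Pgc1b_flox_Cre KLA 9.

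Replicate numbers name libraries and are not tied to shared mice: deviations of same-numbered libraries correlated at -0.083 to 0.072, and the fit with a replicate block changed none of 280 calls. DESeq2 size factors changed none of 280 either and moved the median of all genes by at most 0.069 (log2). Depth limits Iigp1 and Gbp5 in vehicle, where single libraries hold as few as 2 reads of Iigp1 and 14 of Gbp5.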
